A study of Mus musculus with 32 samples.

Results

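The ligands, receptors and feedback inhibitors of the epidermal growth factor (EGF) receptor were followed through diphtheria toxin treatment of mice whose marrow stromal and fat cell lineage can be killed by the toxin. They are 10 listed genes of the 41388 in the count tables, matched by symbol, namely the ligands Hbegf, Areg, Ereg and Tgfa, the receptors Egfr, Erbb2 and Erbb3, and the inhibitors Errfi1, Spry2 and Spry4. Of these, 7 had enough reads to be tested. RNA came from whole femur marrow of mice on a C57BL/6 background, 1 library per mouse, in 8 groups of 4 mice aged 2 months. DTRADQ mice carry a floxed diphtheria toxin receptor (DTR flox) and adiponectin-Cre (ADQ Cre+), and were sampled either with no diphtheria toxin (DT) or once 1, 2 or 3 daily intraperitoneal doses of 100 ng had been given. Their Cre-negative littermates, which carry the same DTR flox allele, served as controls at the same 4 time points and at day 1, 2 and 3 received the same DT. The receptor is therefore switched on wherever adiponectin-Cre has been active, a lineage that includes marrow stromal cells as well as fat cells. All values are from bulk marrow, in which fewer cells of a type and less RNA per cell cannot be told apart.

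The EGF family of ligands is made as membrane-bound precursors that are cut free at the cell surface and bind receptor tyrosine kinases of the ERBB family. Bound receptors pair, phosphorylate each other and signal through adaptors to RAS and ERK, which switch on early response genes and, among them, the inhibitors that damp the pathway. In bone and marrow, EGF receptor signalling is known for its part in osteoblast progenitors and stromal cells. The precursor of HB-EGF, the product of Hbegf, is also the cell-surface receptor through which DT enters cells, and the mouse form binds the toxin poorly, so that toxin-sensitive mice are made with an HB-EGF transgene from a primate. Reads of that transgene may have been counted as mouse Hbegf, since its sequence was not used here, and all Hbegf values are reported as uncertain for this reason.

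Library totals ran from 8966165 to 22929352 counts. Levels are in CPM, the count relative to a library total scaled with TMM factors. Ptprc, the leukocyte antigen CD45, lay between 277 and 958 CPM over the 32 libraries, and erythroid and neutrophil markers were abundant, as marrow holds. The summed level of 10 stromal lineage markers lay between 38.2 and 60.4 CPM in DTRADQ mice after DT and between 461 and 813 CPM in controls after DT. A pair of libraries stood apart in globin share, controls 3 and 4 without DT. Globin genes took 19.7% and 26.4% of their counts, against 5.9% to 15.9% in the 28 libraries of the other 7 groups and 7.5% and 10% in controls 1 and 2. Controls 3 and 4 also had the fewest detected genes, 18015 and 17122, against 18473 to 20912 in the other groups. Controls 1 and 2 without DT differed from the other 7 groups as well. T and NK cell markers summed to 364 and 510 CPM in them, against 177 to 302 CPM in those groups. Neutrophil markers summed to 138000 CPM in control 2, against 43000 to 111000 CPM there. A fit without controls 3 and 4 therefore still rests on controls that differed from the rest. For genes and comparisons given a value here, both values are shown where a call was lost or gained without controls 3 and 4. The same holds where a called value moved by over 1.5 times. Some genes and comparisons without a value here also gained a call without that pair, and these are not named. Day 3 libraries carry the lane label 8 and all others a label for all lanes, so a comparison of day 3 with no DT follows this label, and a comparison of genotypes on 1 day does not.

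Of the members that passed the test of DTRADQ against controls at day 3, Errfi1, Egfr and Erbb2 are shown here by the 300 bases around a start site, 250 before it and 50 from it, to give the promoter letters of the genes the results turn on. The sequences are from RefSeq on GRCm38.p6, all on the plus strand, at chr4:150854820-150855119 for Errfi1, chr11:16751953-16752252 for Egfr and chr11:98412234-98412533 for Erbb2. Capitals mark matches on either strand to the cAMP response element TGACGTCA, the GC box GGGCGG and the TATA box TATAAA.
Errfi1: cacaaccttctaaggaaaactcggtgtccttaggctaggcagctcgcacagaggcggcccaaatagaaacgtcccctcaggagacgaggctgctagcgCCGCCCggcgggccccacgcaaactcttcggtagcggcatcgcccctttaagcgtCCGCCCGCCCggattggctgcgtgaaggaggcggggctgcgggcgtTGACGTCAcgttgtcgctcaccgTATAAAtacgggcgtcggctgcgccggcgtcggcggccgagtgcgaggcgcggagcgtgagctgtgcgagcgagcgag
Egfr: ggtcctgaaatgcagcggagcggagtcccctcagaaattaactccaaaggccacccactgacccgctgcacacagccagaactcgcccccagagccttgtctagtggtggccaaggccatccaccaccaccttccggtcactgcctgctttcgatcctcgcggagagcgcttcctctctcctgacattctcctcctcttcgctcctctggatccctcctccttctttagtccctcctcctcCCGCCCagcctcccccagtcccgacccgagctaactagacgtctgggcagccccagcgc
Erbb2: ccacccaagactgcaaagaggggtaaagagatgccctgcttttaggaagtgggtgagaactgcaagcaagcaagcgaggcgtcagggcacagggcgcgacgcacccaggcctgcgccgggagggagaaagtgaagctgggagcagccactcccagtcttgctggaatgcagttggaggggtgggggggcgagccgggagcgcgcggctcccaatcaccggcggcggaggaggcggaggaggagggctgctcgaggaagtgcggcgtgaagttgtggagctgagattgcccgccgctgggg
The Errfi1 window held a TGACGTCA beginning 51 bases before the start site, a TATAAA beginning 28 bases before it, and 3 GC boxes, of which the pair beginning 97 and 93 bases before it overlap each other. A second start site listed for Errfi1 held none of the motifs. The Egfr window held 1 GC box, beginning 9 bases before the start site, and the Erbb2 window held none of the motifs. Neither these windows nor that of the second Errfi1 start held TGANTCA, the AP-1 site at which FOS and JUN proteins bind. Among 32851 RefSeq promoters of this length, TGACGTCA was present in 1.8%, TATAAA in 13.6%, GGGCGG in 35.7% and TGANTCA in 7.8%, and a match is a description of letters only.

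Per length of transcript, Spry2 was by far the most abundant member, with a median over the 32 libraries of 13.8 RPKM as deposited. Erbb2 had a median of 0.907 RPKM, Errfi1 of 0.737, Erbb3 of 0.549, Hbegf of 0.429, Spry4 of 0.188, Egfr of 0.163 and Tgfa of 0.0138 RPKM. Spry2 exceeded Erbb2 in 30 of 32 libraries and Hbegf exceeded Spry4 in 29 of 32, whereas Erbb3 exceeded Hbegf in only 16 of 32 and Erbb2 exceeded Errfi1 in 21 of 32, so these neighbours changed places between libraries.

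**Figure D1:**
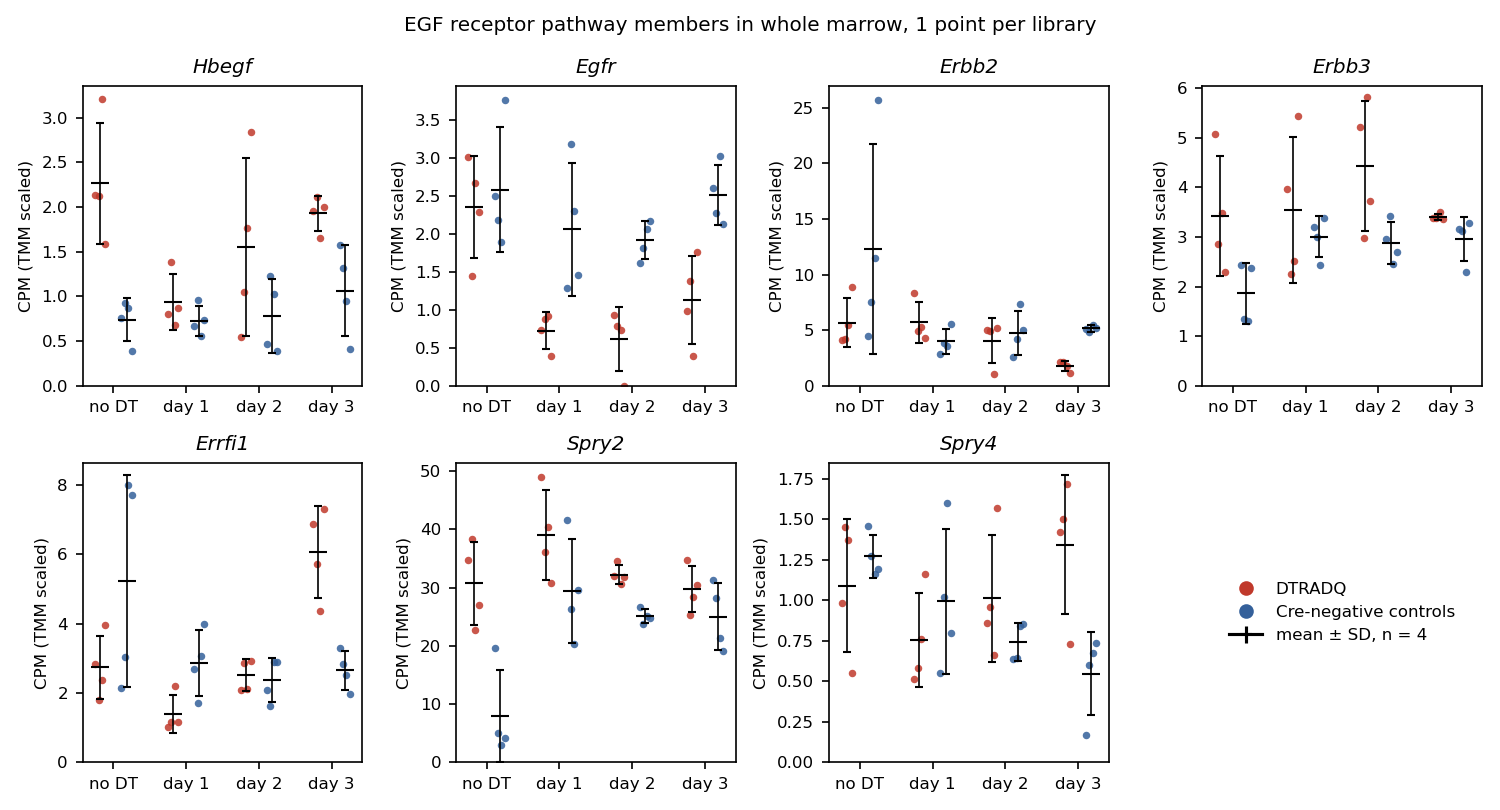
CPM with TMM scaling (y axis) of the 7 tested members without DT and at day 1, 2 and 3 (x axis) in DTRADQ mice and Cre-negative controls, 1 point per library, with mean and SD (n = 4 each). Egfr lies lower in all 4 DTRADQ libraries than in all 4 controls on each day of DT, Errfi1 lies higher and Erbb2 lower at day 3, and Spry2 is low in controls without DT.

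Among the ligands, Hbegf was the one with a testable level. In mice without DT it had 2.13, 2.12, 3.21 and 1.59 CPM in DTRADQ marrow, against 0.764, 0.928, 0.871 and 0.395 CPM in controls. Every DTRADQ library was above every control. The log2 difference was 1.54 ± 0.43 (SE, n = 4 each, adjusted p = 0.0084). At day 1, DTRADQ marrow had 0.809, 1.39, 0.685 and 0.873 CPM and controls 0.674, 0.958, 0.557 and 0.732 CPM. The groups then overlapped, with a log2 difference of 0.36 ± 0.44 (adjusted p = 0.7416). At day 2, DTRADQ values were 0.545, 1.05, 1.77 and 2.84 CPM and control values 0.464, 1.23, 1.03 and 0.394 CPM, spread widely within both genotypes, and the difference of 0.97 ± 0.42 did not pass (adjusted p = 0.1394). At day 3, Hbegf had 1.96, 2.11, 1.65 and 2 CPM in DTRADQ marrow, against 1.58, 1.32, 0.948 and 0.409 CPM in controls. All 4 DTRADQ libraries were again the higher, but the difference of 0.86 ± 0.37 did not pass the threshold (95% interval 0.11 to 1.61, adjusted p = 0.0915).

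Within DTRADQ mice, Hbegf differed from no DT by a log2 value of -1.26 ± 0.40 at day 1, short of the threshold (adjusted p = 0.0567), by -0.56 ± 0.38 at day 2 and by -0.22 ± 0.36 at day 3. In controls the same comparisons gave -0.08, 0.01 and 0.46. The difference between genotypes in these responses was not past the threshold on any day, with -1.18 ± 0.62 at day 1 (adjusted p = 0.2194). Without controls 3 and 4, the difference without DT was 1.42 and no longer passed (adjusted p = 0.065), and the fall within DTRADQ at day 1 was -1.25 and did (adjusted p = 0.0355).

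The other ligands were at the limit of detection. Areg, which encodes amphiregulin, had 0 reads in all 32 libraries, where the limit of 3 counts lay between 0.12 and 0.593 CPM. Ereg, which encodes epiregulin, had 5 reads in all, 4 of them in DTRADQ marrow at day 3, where 2 libraries had any, and 1 in a control without DT. Tgfa, which encodes transforming growth factor alpha, had 50 reads in 18 libraries and at most 4 in any. By time point, Tgfa had 8 reads in DTRADQ and 0 in controls without DT, 7 and 5 at day 1, 12 and 5 at day 2, and 8 and 5 at day 3. At this depth these ligands were not tested for a genotype difference.

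Egfr, the receptor for HB-EGF, amphiregulin, epiregulin and TGF-alpha (ENSMUSG00000020122, chromosome 11, 16752203 to 16918158 in GRCm38), was lower in DTRADQ marrow on each day of DT. Without DT the genotypes overlapped, with 3.01, 1.45, 2.67 and 2.29 CPM in DTRADQ marrow and 2.5, 2.19, 1.89 and 3.76 CPM in controls. At day 1, DTRADQ marrow had 0.735, 0.876, 0.914 and 0.388 CPM, against 1.29, 3.19, 2.3 and 1.46 CPM in controls. At day 2, it had 0.935, 0.787, 0.736 and 0 CPM, against 1.62, 1.81, 2.07 and 2.17 CPM in controls. On both days every DTRADQ library was below every control. At day 3, DTRADQ marrow had 0.981, 1.38, 0.397 and 1.76 CPM, against 2.6, 2.28, 3.03 and 2.13 CPM in controls, again without overlap. These levels rest on few reads, at most 36 in a DTRADQ library after DT and as few as 0.

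On the log2 scale, Egfr differed between DTRADQ and controls by -0.10 ± 0.38 before toxin (adjusted p = 0.875), by -1.46 ± 0.42 at day 1 (adjusted p = 0.0413), by -1.58 ± 0.43 at day 2 (adjusted p = 0.0207) and by -1.12 ± 0.37 at day 3 (adjusted p = 0.0265). It was the 1 member of 7 called at day 1, where 3.90% of all genes tested were called, 0.888% higher and 3.02% lower. It was also the 1 member called at day 2, where 8.52% were called, 4.40% higher and 4.12% lower. Within DTRADQ mice Egfr fell by 1.65 at day 1, by 1.88 at day 2 and by 1.02 at day 3 on the log2 scale relative to no DT (adjusted p = 0.0138, 0.0058 and 0.0387), whereas within controls the values were -0.29, -0.40 and -0.01 and none passed. The test of the genotypes' difference in response did not pass, with -1.36 ± 0.57 at day 1, -1.48 ± 0.58 at day 2 and -1.01 ± 0.53 at day 3 (adjusted p = 0.1112, 0.0929 and 0.1756). All 10 stromal lineage markers also fell in DTRADQ relative to controls on each day, with a median log2 difference of -4.04 at day 1, -3.70 at day 2 and -3.97 at day 3, and their part in the Egfr result was not tested.

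The Egfr calls are near the threshold. The call at day 1 was lost without DTRADQ replicate 1, 2, 3 or 4 or control replicate 2 or 3, with values between -1.58 and -1.17 (adjusted p = 0.0688 to 0.178), and with the replicate number as a block (adjusted p = 0.051). The call at day 2 was lost without DTRADQ replicate 3 or 4 or control replicate 3 or 4 (values -1.66 to -1.2, adjusted p = 0.0508 to 0.06), and that at day 3 without DTRADQ replicate 1 or 3 or control replicate 1 or 3 (values -1.1 to -0.81, adjusted p = 0.0518 to 0.127). Within DTRADQ, the call at day 1 was lost without DTRADQ replicate 4 of day 1 (-1.45, adjusted p = 0.0676) and with the skeletal muscle markers in the model (-1.48, adjusted p = 0.0806), and that at day 3 without DTRADQ replicate 1, 3 or 4 of the mice without DT or 1, 2 or 3 of day 3 (values -1.09 to -0.72, adjusted p = 0.0589 to 0.165).

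Erbb2, which encodes a receptor with no known ligand that serves as a pairing partner (ENSMUSG00000062312, chromosome 11, 98412470 to 98437716 in GRCm38), was lower in DTRADQ marrow at day 3. It had 2.13, 2.16, 1.78 and 1.17 CPM in DTRADQ marrow, against 5.08, 4.8, 5.51 and 5.24 CPM in controls. The groups did not overlap, and the log2 difference was -1.51 ± 0.42 (adjusted p = 0.0092). Relative to DTRADQ mice without DT, Erbb2 fell by 1.64 at day 3 (adjusted p = 0.0041). Of 7 erythroid markers, 4 were lower and 1 higher in DTRADQ than in controls at day 3, with a median log2 difference of -1.66, and 4 were lower and 1 higher than in DTRADQ without DT, with a median of -1.25. Their summed level at day 3 was nonetheless the higher one in DTRADQ, at 91500 to 136000 CPM, against 54100 to 73700 CPM in controls, and their part in the Erbb2 result was not tested. At day 1 its mean was 5.72 ± 1.82 CPM in DTRADQ and 4 ± 1.15 CPM in controls, and at day 2 it was 4.04 ± 2.01 and 4.79 ± 1.98 CPM (SD, n = 4 each), differences that did not pass.

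Without DT, Erbb2 had 4.1, 4.25, 5.47 and 8.87 CPM in DTRADQ marrow, against 4.44, 7.51, 11.5 and 25.7 CPM in controls. The highest values were those of controls 3 and 4, in which the summed erythroid markers were also highest, at 251000 and 430000 CPM. The difference of -1.06 ± 0.40 (adjusted p = 0.0472) was -0.07 (adjusted p = 0.939) without that pair, and its call was also lost without DTRADQ replicate 1, 2 or 3 or control replicate 3 or 4 alone (values -1.04 to -0.42, adjusted p = 0.0845 to 0.441). Falls in Erbb2 within controls of 1.55 at day 1, 1.29 at day 2 and 1.19 at day 3 rest on the same libraries and became -0.56, -0.30 and -0.19 without them, none of which passed. Control 4 alone ended each of these calls (values -0.91 to -0.54), and control 3 alone ended that at day 3 (-1.15), as did control replicate 2 of that day (-1.15) and, for day 2, control replicate 1 of that day (-1.08). Exons of Erbb2 overlap those of Mien1 on the other strand, and the strand setting of the counting is not given in the sources used here, so Erbb2 is reported as uncertain. Mien1 differed by a log2 value of 0.00 ± 0.16 between DTRADQ and controls at day 3 (adjusted p = 0.9893) and by -0.94 ± 0.16 without DT (adjusted p = 9.5e-05).

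Erbb3, which encodes a neuregulin receptor with a weak kinase of its own (ENSMUSG00000018166, chromosome 10, 128567523 to 128589652 in GRCm38), passed no test between genotypes after DT. At day 2 the difference was 0.63 ± 0.26 (adjusted p = 0.1255). At day 3 it had 3.38, 3.38, 3.5 and 3.37 CPM in DTRADQ marrow, against 3.16, 3.12, 2.3 and 3.27 CPM in controls. The groups did not overlap, but the log2 difference of 0.20 ± 0.25 did not pass (adjusted p = 0.6133). Without DT it had 5.08, 2.85, 3.49 and 2.29 CPM in DTRADQ marrow, against 2.43, 1.35, 1.31 and 2.37 CPM in controls. DTRADQ replicate 4 lay below controls 1 and 4, and the difference was 0.88 ± 0.29 (adjusted p = 0.0212). This call was lost without DTRADQ replicate 1 or control replicate 2 or 3 (values 0.63 to 0.79, adjusted p = 0.0688 to 0.129) and without controls 3 and 4 together (0.85, adjusted p = 0.0969).

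**Figure D2:**
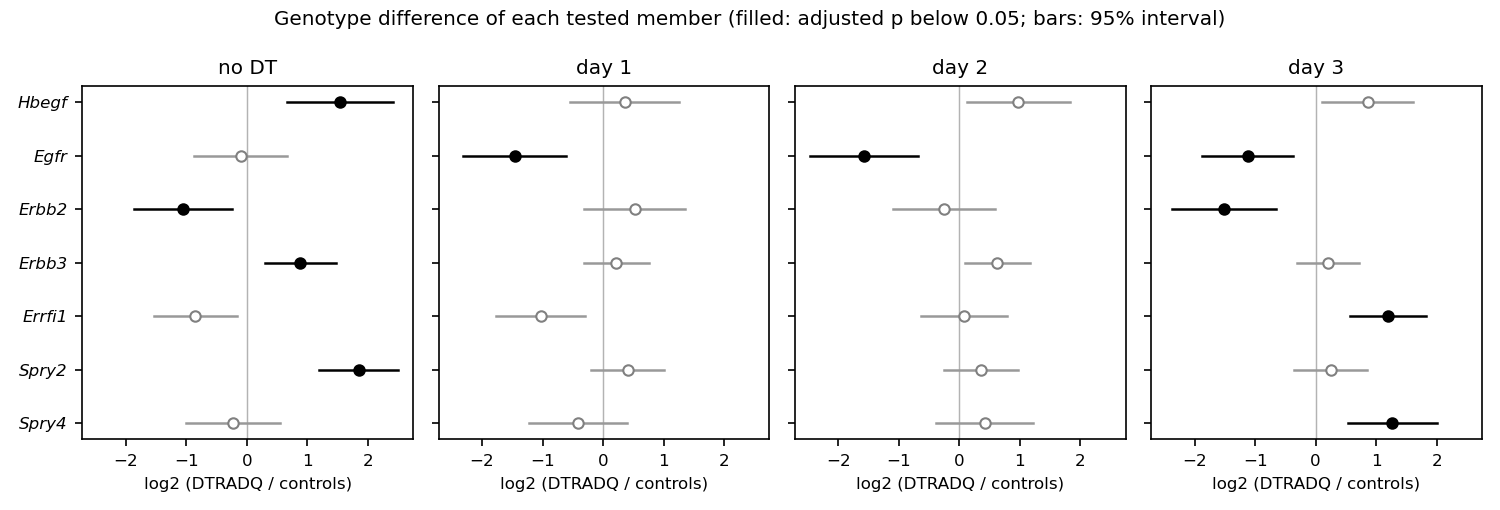
Log2 difference of DTRADQ over controls (x axis) for the 7 tested members (y axis) without DT and at day 1, 2 and 3, with 95% intervals; filled points passed an adjusted p of 0.05. Egfr lies below 0 on each day of DT, and at day 3 Erbb2 lies at -1.51, Errfi1 at 1.19 and Spry4 at 1.27.

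Errfi1, which encodes MIG6, a feedback inhibitor that binds the kinase domain of EGF receptors (ENSMUSG00000028967, chromosome 4, 150853919 to 150868892 in GRCm38), was higher in DTRADQ marrow at day 3. It had 6.87, 5.71, 4.36 and 7.32 CPM in DTRADQ marrow, against 3.29, 2.84, 2.53 and 1.96 CPM in controls. The groups did not overlap, and the log2 difference was 1.19 ± 0.31 (adjusted p = 0.0056). At day 1, it had 1.03, 1.17, 2.21 and 1.16 CPM in DTRADQ marrow, against 2.7, 1.72, 3.06 and 3.99 CPM in controls. DTRADQ replicates 1, 2 and 4 were below all controls, and the difference of -1.03 ± 0.36 did not pass (adjusted p = 0.1142), though it did, at -1.04, in the fit without controls 3 and 4 without DT (adjusted p = 0.0254). At day 2 the means were 2.51 ± 0.458 CPM in DTRADQ and 2.37 ± 0.633 CPM in controls (SD, n = 4 each).

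Within DTRADQ mice, Errfi1 rose by a log2 value of 1.15 ± 0.32 at day 3 relative to no DT (adjusted p = 0.0067). Without DT it had 2.85, 1.81, 2.39 and 3.95 CPM in DTRADQ marrow, against 2.15, 3.04, 7.99 and 7.71 CPM in controls, where the high values were those of controls 3 and 4. The difference between the genotypes in response at day 3, 2.04 ± 0.46 (adjusted p = 0.0019), was 1.13 without that pair and just missed the threshold (adjusted p = 0.0502). Falls in controls of 1.05 at day 2 and 0.89 at day 3 became -0.11 and 0.06 without it, and neither passed. Either control 3 or control 4 alone ended both calls (values -0.78 to -0.53), as did control replicate 1 or 2 of day 2 (-0.99 and -0.91) or 2, 3 or 4 of day 3 (values -0.92 to -0.77) for their own day.

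Markers of other cell types moved with the day 3 rise of Errfi1, and none of these markers was at 0 in any group. Of 8 skeletal muscle markers, 6 were called higher in DTRADQ, and their summed level was 110, 655, 114 and 261 CPM in DTRADQ replicates 1 to 4, against 58, 43.4, 29.6 and 34.7 CPM in the controls. All 8 fibroblast and matrix markers were called higher, with sums of 342, 328, 266 and 450 CPM in DTRADQ, against 50.9, 39.8, 40.6 and 47.4 CPM in controls. Of 8 endothelial markers, 5 were called higher, and their sums ran from 138 to 192 CPM in DTRADQ libraries, against 69.5 to 97.1 CPM in control libraries. In a model that held the mean of the muscle markers, the Errfi1 difference was 0.72 and did not pass (adjusted p = 0.209). The day 3 rise within DTRADQ was then 0.91 (adjusted p = 0.042) and the difference in response 1.71 (adjusted p = 0.0147), and both passed. The day 3 fall within controls was then -0.81 and did not pass (adjusted p = 0.0569). The muscle sums at day 3 did not overlap between the genotypes, so this model cannot fully separate muscle from genotype. The part of the muscle, fibroblast and endothelial markers in the result was not tested.

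Spry2, which encodes a Sprouty protein that restrains RAS and ERK signalling (ENSMUSG00000022114, chromosome 14, 105891949 to 105896819 in GRCm38), passed the test between genotypes before the toxin and on no day of DT. Without DT it had 34.8, 38.4, 22.7 and 27 CPM in DTRADQ marrow, against 19.7, 4.98, 3.05 and 4.15 CPM in controls. All 4 DTRADQ libraries were above all controls, of which control 1 was the highest, and the log2 difference was 1.85 ± 0.32 (adjusted p = 9.8e-05), or 2.89 without control 1. Of 7 neutrophil markers, 5 were lower in DTRADQ in this comparison, with a median of -1.07, and their sums were 75600 to 86200 CPM in DTRADQ, against 78500 CPM in control 1 and 138000 to 255000 CPM in controls 2 to 4. Their part in the Spry2 result was not tested. At day 1 the means were 39 ± 7.72 CPM in DTRADQ and 29.4 ± 8.95 CPM in controls, at day 2 they were 32.2 ± 1.69 and 25.1 ± 1.26 CPM, and at day 3 they were 29.7 ± 3.98 and 25 ± 5.69 CPM (SD, n = 4 each). In the model of all groups the differences of 0.41, 0.36 and 0.25 did not pass, although the day 2 groups did not overlap. An edgeR fit of only the groups compared gave 0.36 at day 2, which passed (adjusted p = 0.0167).

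Relative to no DT, Spry2 in DTRADQ mice differed by 0.34, 0.07 and -0.05 at day 1, 2 and 3, and in controls it rose by 1.78, 1.55 and 1.55 (adjusted p = 8.0e-05, 4.8e-04 and 4.1e-04). These rises were 2.83, 2.6 and 2.59 without control 1 and 1.26, 1.02 and 1.02 without controls 3 and 4, and passed in each case. In edgeR fits of only the groups compared the rises were 1.86, 1.62 and 1.61 and did not pass (adjusted p = 0.0521, 0.0731 and 0.076). The genotypes differed in this response by -1.44 ± 0.44, -1.49 ± 0.44 and -1.60 ± 0.43 (adjusted p = 0.0273, 0.0253 and 0.0086), or by -2.49, -2.53 and -2.65 without control 1. Without controls 3 and 4, the difference without DT was 1.31 and still passed (adjusted p = 0.00637), and the differences in response were -0.91, -0.94 and -1.04 and did not (adjusted p = 0.125, 0.11 and 0.0501). Models of only the 4 groups compared also lost them (adjusted p = 0.142, 0.118 and 0.0583). The calls at day 1 and 2 were also lost without 1 library at a time, namely DTRADQ replicate 1 or 2 or control replicate 2 or 3 without DT, and at day 1 also DTRADQ replicate 4 or control replicate 1 of that day (values -1.42 to -1.2, adjusted p = 0.0512 to 0.0719).

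Spry4, a second Sprouty gene (ENSMUSG00000024427), was higher in DTRADQ marrow at day 3. It had 1.42, 1.5, 1.72 and 0.732 CPM in DTRADQ marrow, against 0.171, 0.599, 0.677 and 0.736 CPM in controls. The fourth DTRADQ library lay within the range of the controls and the others lay above it, and the log2 difference was 1.27 ± 0.36 (adjusted p = 0.0111). The genotypes differed in their response by 1.5 ± 0.53 (adjusted p = 0.0402), with a change of 0.28 ± 0.35 within DTRADQ that did not pass and a fall of 1.22 within controls (adjusted p = 0.0177). Counts were low, between 4 and 27 reads per library at day 3. Without control replicate 1 of day 3, the genotype difference (0.98, adjusted p = 0.0519) and the fall within controls (-0.93, adjusted p = 0.0696) did not pass. The genotype difference was 1.93 in the model that held the muscle markers and still passed. The call of the response was kept without controls 3 and 4 without DT (1.6, adjusted p = 0.0442) and lost in a model of only the 4 groups compared (adjusted p = 0.0856) and without any of DTRADQ replicate 1, 2 or 3 or control replicate 1 or 2 of day 3, or DTRADQ replicate 1 or 4 or control replicate 1 or 2 without DT (values 1.21 to 1.55, adjusted p = 0.0527 to 0.0898).

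Counted over the members, 4 of the 7 tested passed at day 3, Errfi1 and Spry4 higher and Egfr and Erbb2 lower, where 22.9% of all genes tested were called, 8.80% higher and 14.1% lower. Without DT, 4 passed as well, Hbegf, Erbb3 and Spry2 higher and Erbb2 lower, where 27.1% of all genes were called, 12.7% higher and 14.4% lower. In that comparison 1 member, Spry2, passed without controls 3 and 4. A model of these 8 libraries alone called 0 of the 7 members and 0 of 13308 genes, with 4 members and 2940 genes at an unadjusted p under 0.05 (edgeR). The test of response called 1 member at day 1, 1 at day 2 and 3 at day 3, where 12.3%, 11.1% and 21.0% of all genes were called. Within DTRADQ, DT against no DT called 1, 1 and 3 members, where 5.48%, 9.11% and 29.4% of all genes were called, and within controls it called 2, 3 and 4, where 33.4%, 28.3% and 30.2% were. Members with no overlap between the genotypes were 2 before toxin, then 1, 2 and 5 on successive days of DT, where 11.1%, 14.0%, 21.5% and 35.3% of all genes had groups that did not overlap. The comparisons of response and of DT with no DT share the libraries without DT.

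**Figure D3:**
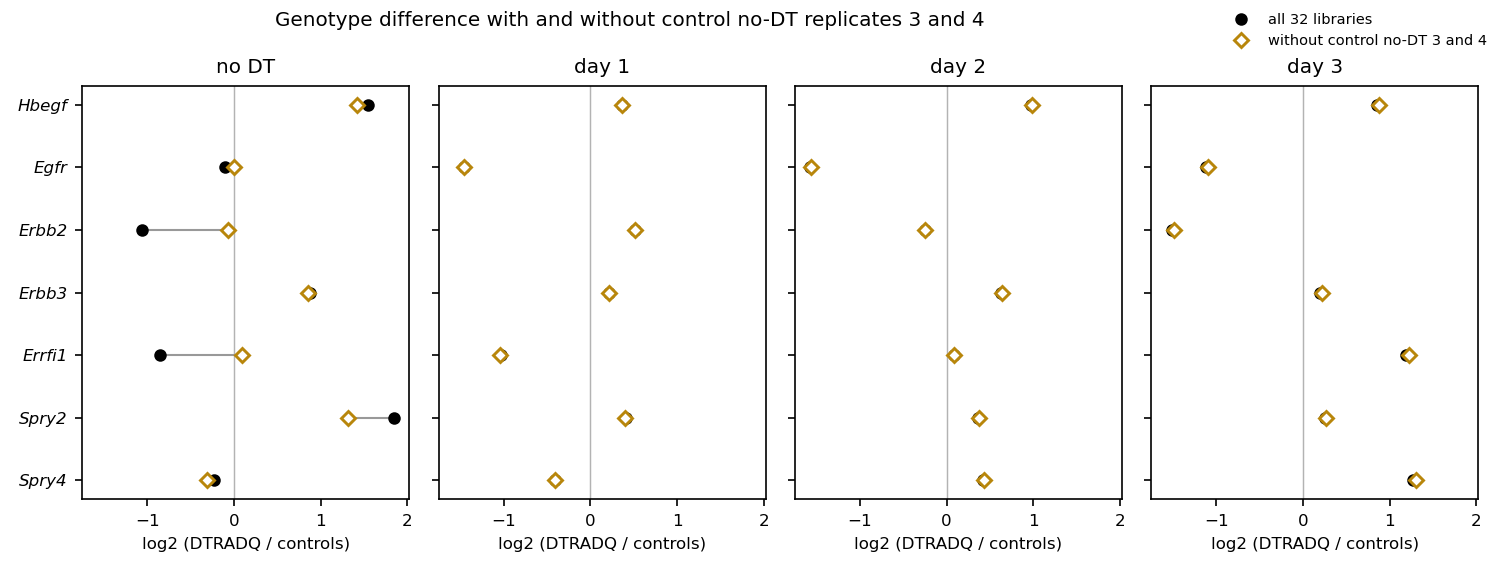
Log2 difference of DTRADQ over controls (x axis) for the 7 tested members (y axis), from all 32 libraries (filled circles) and without controls 3 and 4 of the group without DT (open diamonds). Without DT, Erbb2 lies at -0.07 without the pair and at -1.06 with it, Errfi1 lies at 0.09 and at -0.85, and on the days of DT the markers nearly coincide.

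Of the rest of the pathway, some of the early response genes that ERK signalling is known to induce were higher in DTRADQ marrow at day 1. No tested gene of the other pathway lists passed that day, and what induced the early response genes was not tested. Of 18 listed, 14 were tested, and 6 were higher, 1 was lower and 7 did not pass, where 0.888% of all genes were higher and 3.02% lower. The list median was 0.64 on the log2 scale against -0.01 over all genes. Egr1, a zinc finger transcription factor, averaged 28.9 ± 13 CPM in DTRADQ and 2.22 ± 0.157 CPM in controls (SD, n = 4 each), a log2 difference of 3.70 ± 0.45 (adjusted p = 9.1e-07). Jun, a component of AP-1, averaged 15.9 ± 6.22 and 1.97 ± 0.856 CPM, a difference of 3.02 ± 0.41 (adjusted p = 5.6e-06), and Egr2 averaged 5.43 ± 3.34 and 0.607 ± 0.115 CPM, a difference of 3.15 ± 0.53 (adjusted p = 1.8e-04). The others, named after their values were seen, were Atf3 at 2.07, Fos at 1.59 and Junb at 1.42, and Myc, a growth regulator, was the lower one at -0.58. Myc did not pass without DTRADQ replicate 2 or 3 or control replicate 2 (values -0.59 to -0.53, adjusted p = 0.0513 to 0.0887).

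At day 2, 4 were higher and 0 lower, where 4.40% of all genes were higher and 4.12% lower. They were Egr2 at 2.29, Egr1 at 1.42, Ier3 at 0.85 and Fosl2 at 0.76, and each call was lost without at least 1 library. Egr1 at day 2 rested on DTRADQ replicate 1 in particular, without which it was 0.34 (adjusted p = 0.597), and Egr2 without it was 1.48 (adjusted p = 0.0818). At day 3, 3 were higher and 0 lower in edgeR, where 8.80% of all genes were higher and 14.1% lower, and DESeq2 called 6. Etv5, a transcription factor of the ETS family that ERK signalling induces, averaged 3.82 ± 0.641 CPM in DTRADQ and 1.65 ± 0.441 CPM in controls (SD, n = 4 each), a difference of 1.21 ± 0.23 (adjusted p = 2.6e-04) that stayed past the threshold without any 1 of the 8 libraries. Fos at 0.83 and Ier3 at 0.61 were each lost without 7 of the 8. Before toxin, where 12.7% of all genes were higher, Fos at 1.07 and Fosl2 at 0.57 were higher, and neither passed without controls 3 and 4 (0.83 and 0.27).

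**Figure D4:**
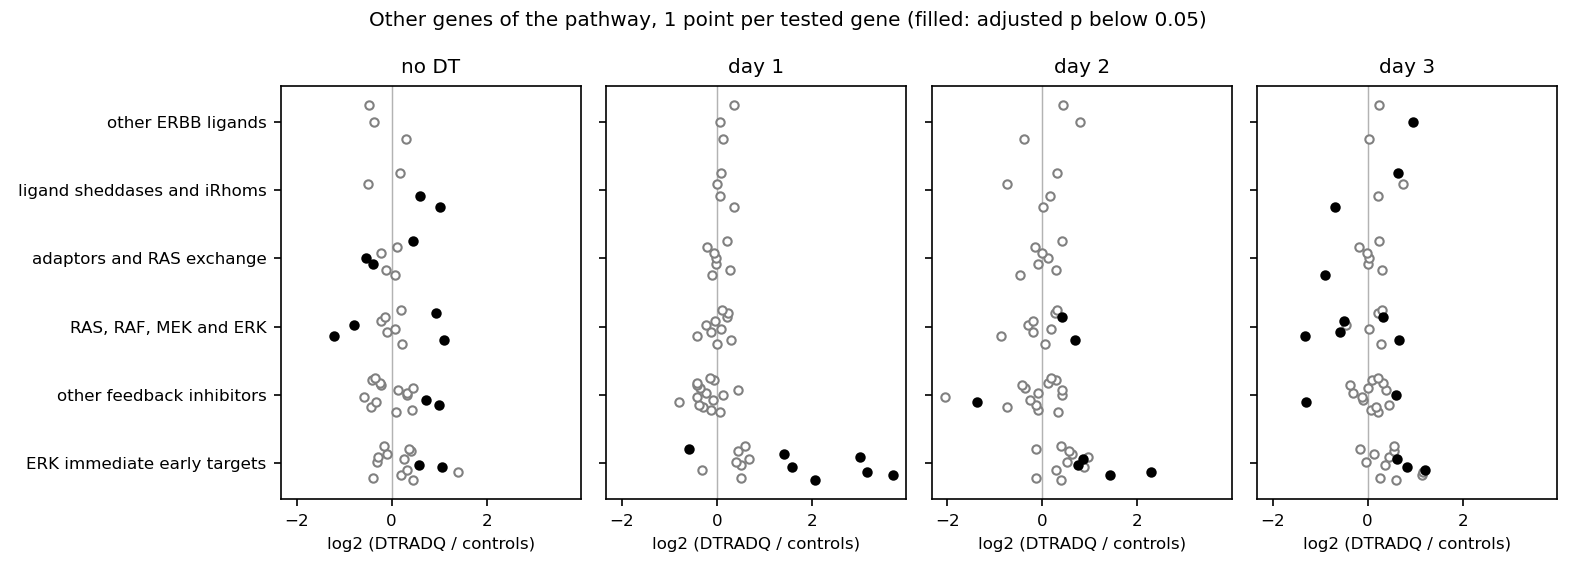
Log2 difference of DTRADQ over controls (x axis) of the tested genes in 6 lists of the pathway (y axis) without DT and at day 1, 2 and 3, 1 point per gene; filled points passed an adjusted p of 0.05. At day 1 the filled points are all of the early response list, led by Egr1 at 3.70, and what induced these genes was not tested.

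Upstream of the receptors, 3 of 7 other ERBB ligands were tested. Nrg1, which encodes neuregulin 1, a ligand of ERBB3, is the one of them that passed in the model of all groups. It averaged 9.21 ± 1.98 CPM in DTRADQ and 4.76 ± 1.14 CPM in controls at day 3 (SD, n = 4 each), a log2 difference of 0.95 ± 0.29 (adjusted p = 0.0166). This call was lost without DTRADQ replicate 2 or control replicate 1 or 4 (values 0.83 to 0.86, adjusted p = 0.0595 to 0.0638). Egf and Nrg4 did not pass at any time point in that model (edgeR; over the 3 ligands, 1 was at an unadjusted p under 0.05 before toxin, 0 at day 1 and 2 at day 2). At day 2, edgeR fits of only the groups compared and without controls 3 and 4 each called 1 of the 3, not named here. Leaving out 1 library called up to 1 before toxin. Erbb4, the remaining ERBB receptor, had 1 read in all 32 libraries. Of the 4 sheddases and iRhoms, which free the ligands from their precursors, Rhbdf2, which encodes iRhom2, was higher at day 3 by 0.64 ± 0.16 (adjusted p = 0.0034) and Adam10, which encodes a sheddase, lower by a log2 value of -0.69 ± 0.19 (adjusted p = 0.0105). The Adam10 call was lost without DTRADQ replicate 2 (-0.62, adjusted p = 0.0502). Without DT, Adam10 and Adam17, the sheddase of Hbegf, were higher by 1.01 ± 0.20 and 0.59 ± 0.13 (adjusted p = 3.1e-04 and 0.0014), and both calls held without controls 3 and 4, at 0.67 and 0.53. None of the 4 passed at day 1 or day 2 (0 at an unadjusted p under 0.05 on either day in edgeR, 0 called by DESeq2).

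Downstream, 1 of 7 adaptors and RAS exchange factors passed at day 3, Gab1, a docking protein of the receptors, at -0.90 ± 0.22 (adjusted p = 0.0032), with 4.67 ± 0.791 CPM in DTRADQ and 8.69 ± 1.05 CPM in controls (SD, n = 4 each). Before toxin, Sos2 was higher at 0.44 and Ptpn11 and Grb2 lower at -0.54 and -0.40, and none of these calls held without controls 3 and 4 (0.37, -0.18 and -0.18). At day 1 and day 2, 0 adaptors passed in the edgeR model of all groups (0 and 3 at an unadjusted p under 0.05; 0 and 1 called by DESeq2). At day 2, edgeR also called 1 in the fit of only the groups compared. It called 1 as well without controls 3 and 4 and with the replicate block. Of the RAS, RAF, MEK and ERK genes, the small GTPase gene Hras was lower at day 3 at -1.32 ± 0.34 (adjusted p = 0.0048) and stayed past the threshold without any 1 library. Braf at 0.66 and Mapk3, which encodes ERK1, at 0.33 were higher at day 3 and were lost without 3 and 6 of the 8 libraries. Braf and Mapk3 were also higher at day 2, at 0.68 and 0.42, and were lost without 6 and 4 of the 8. At day 1, 0 passed (0 at an unadjusted p under 0.05 in edgeR, 0 by DESeq2). Before toxin, Braf at 1.10 and Nras at 0.93 were higher and Hras at -1.22 and Map2k2, which encodes MEK2, at -0.80 lower. Of these 4, Braf alone was called without controls 3 and 4, at 0.83, and Nras was then 0.26, Hras 0.15 and Map2k2 -0.16.

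Of 18 further feedback inhibitors, 15 were tested, and 0 passed at day 1 (2 at an unadjusted p under 0.05 in edgeR, 0 in DESeq2). Lrig1, a membrane protein that promotes the breakdown of EGF receptors, was lower at day 2 by a log2 value of -1.37 ± 0.38 (adjusted p = 0.0235) and at day 3 by -1.29 ± 0.38 (adjusted p = 0.0138), with 0.744 ± 0.452 CPM in DTRADQ and 1.88 ± 0.593 CPM in controls at day 2 and 0.488 ± 0.181 and 1.22 ± 0.193 CPM at day 3 (SD, n = 4 each). The day 2 call was lost without DTRADQ replicate 2 or 3 or control replicate 3 or 4 and the day 3 call without DTRADQ replicate 2 or 3 (values -1.3 to -1.08 and -1.11 to -1.1). Ptpn1, which encodes a tyrosine phosphatase, was higher at day 3 by 0.59 ± 0.20 (adjusted p = 0.0301), and did not pass without DTRADQ replicate 2 or control replicate 1 or 4 (values 0.46 to 0.59, adjusted p = 0.0547 to 0.141). Without DT, Dusp6, an ERK phosphatase, and Lrig2 were higher by 1.00 and 0.72, and without controls 3 and 4 Dusp6 was 0.58 (adjusted p = 0.0994). At day 3 the median log2 difference was 0.24 over the tested ligands, 0.43 over the sheddases and iRhoms, 0.01 over the adaptors, 0.13 over the RAS, RAF, MEK and ERK genes, 0.09 over the feedback inhibitors and 0.56 over the early response genes, beside -0.02 over all genes tested. Over the 6 lists, 13 of the 53 genes tested were called before toxin, or 24.5%, a share near the 27.1% of all genes. At day 1 and at day 2, 7 were called, or 13.2%, beside 3.90% and 8.52% of all genes. At day 3, 14 of the 53 were called, or 26.4%, a share near the 22.9% of all genes. Of these 14, 8 did not pass in the model that held the muscle markers, among them Nrg1 (0.63), Rhbdf2 (0.33), Adam10 (-0.60), Lrig1 (-1.08) and Ptpn1 (0.49). That model cannot fully separate muscle from genotype at day 3, and the part of muscle in these results was not tested.

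The genes whose group means followed each member most closely over the 8 groups were found by the root mean square difference of log2 values after centring. For Egfr they were Antxr1 at 0.27, Adh1 at 0.27 and Cyp1b1 at 0.30, where the median over 11349 genes (mean log2 CPM 1 or more) was 0.81. For Erbb2 they were 1600020E01Rik at 0.14, Cdkn3 at 0.15 and Gm17807 at 0.16, against a median of 0.68. For Errfi1 they were Fhl2 at 0.20, S100a16 at 0.22 and Mgp at 0.22, against a median of 0.64, and for Spry4 they were Btbd19 at 0.18, Iglv3 at 0.19 and Spaca6 at 0.19, against 0.46. These are descriptions over 8 group means that share libraries.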

How the data were processed

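Total RNA from whole femur marrow was made into Clontech SMARTer libraries, per the labels' protocols, and the reads were processed with bcl2fastq, STAR (2.0.4b), the Subread tools and featureCounts (1.45) on GRCm38, per the submitters' processing notes. Of the counting, neither the annotation release nor its use of strand and of multi-mapped reads is given in the sources used here. For every library the authors deposited, per the file headers, a raw count, a CPM and an RPKM value for each gene. The deposited CPM equalled the count over the library total to within 4.4e-10. Counts were used for all tests and the deposited RPKM only to order the members by level.

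In R 4.3.3, 14527 genes kept by filterByExpr (edgeR 4.0.16, minimum count 10) were scaled by TMM and fitted with 1 quasi-likelihood model of the 8 group means. The 13 contrasts were DTRADQ against controls at 4 time points, genotype by DT on 3 days, called the difference in response, and DT against no DT within each genotype. P-values were two-sided and adjusted by Benjamini-Hochberg over all genes within each contrast, with a threshold of 0.05. A called gene passed it. SE is the absolute log2 change over the square root of F. Labels give 4 mice per group and 1 library each, so p-values measure the spread between mice. The script was tested on simulated data.

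The members, lists and rule were chosen with earlier results of these data known. All 10 members are named, with up to 3 genes of smallest p per list and contrast, all where 3 or fewer passed, and the 3 most alike genes of each member called after DT. Spry3 was not analysed here. Some genes of the RAS, RAF, MEK and ERK list are not reported here. Alternatives were DESeq2 1.42.0, DESeq2 size factors, no filter, only the groups compared, the replicate block, a skeletal muscle covariate, each library left out, and controls 3 and 4 without DT left out together. No pair of libraries within a group was a copy, and pairs across groups were not compared for this. The floor of 3 counts covers counting error only.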

Additional observations from a re-analysis of the deposited data

Results flagged for a closer look

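Within groups of 4, 5 values lay far from the other libraries of their group, of 56 groups looked at, and chance flags about 1 in 20 such groups. Erbb2 had 1.03 CPM in DTRADQ replicate 3 at day 2, against 4.89 to 5.19 CPM in the other libraries of that group. Errfi1 had 2.21 CPM in DTRADQ replicate 3 at day 1, against 1.03 to 1.17 CPM in the others. Erbb3 had 3.5 CPM in DTRADQ replicate 3 at day 3, against 3.37 to 3.38 CPM, a small gap in a tight group, and 2.3 CPM in control replicate 3 at day 3, against 3.12 to 3.27 CPM. Spry2 had 19.7 CPM in control replicate 1 without DT, against 3.05 to 4.98 CPM in the other controls of that group, and the DTRADQ libraries without DT lay between 22.7 and 38.4 CPM.

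The genotypes differed in their response to DT, by the interaction test of the model, for Errfi1 at day 3 (log2 2.04), for Spry4 at day 3 (1.5) and for Spry2 at day 1 (-1.44), day 2 (-1.49) and day 3 (-1.6). All of these values use the controls without DT. The Errfi1 and Spry2 calls were lost without controls 3 and 4 of that group, and the Spry4 call, kept without that pair, did not pass in 11 of 23 alternatives (adjusted p up to 0.0928).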

How the results depend on the processing

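The controls without DT limit most comparisons that use them. Without their replicates 3 and 4, the members called numbered 1 without DT, 2 at day 1, 0, 0 and 1 for the response at day 1, 2 and 3, 3 within DTRADQ at day 1, and 1, 1 and 2 within controls at day 1, 2 and 3. With all libraries these were 4, 1, 1, 1, 3, 1, 2, 3 and 4. A fit of only the groups compared called 0 without DT, 2 at day 2, 0, 0 and 1 for the response, 2 within DTRADQ at day 1, and 0, 0 and 0 within controls. At an unadjusted p under 0.05 in edgeR, the counts of 0 became 4 without DT, 4 and 2 for the response at day 1 and 2, and 3, 4 and 4 within controls. DESeq2, no filter and the muscle covariate each called 2 members for the response at day 1, against 1, and the muscle covariate called 0 within DTRADQ at day 1, against 1.

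Leaving out 1 library gave 2 to 5 members called without DT, 0 to 1 at day 1, 0 to 2 at day 2 and 2 to 4 at day 3. It gave 0 to 2, 0 to 2 and 2 to 3 for the response, 0 to 1, 1 to 1 and 2 to 3 within DTRADQ, and 1 to 4, 1 to 4 and 2 to 5 within controls. All genes called moved as well, over 2268 to 5947 without DT, 326 to 682, 574 to 1484 and 2258 to 3144 on successive days. For the response they ran over 1231 to 3951, 1135 to 3745 and 2546 to 4563. Within DTRADQ they ran over 437 to 744, 540 to 1300 and 3068 to 4083, and within controls over 3494 to 6417, 2818 to 5875 and 3124 to 6020. Some signs turned. Egfr without DT was 0.08 without DTRADQ replicate 2 and 0.09 without control replicate 4, against -0.10. Erbb3 at day 1 was -0.04 without DTRADQ replicate 4, against 0.22, and ran to 0.39 without others. Erbb2 at day 2 was 0.08 without DTRADQ replicate 3 and 0.03 without control replicate 3, against -0.25, and ran to -0.46. Errfi1 at day 2 was -0.07 without control replicate 2, against 0.08, and ran to 0.19. Without controls 3 and 4, Errfi1 was 0.09 without DT, against -0.85, and 0.06 at day 3 within controls, against -0.89, and Hras without DT was 0.15, against -1.22. The causes were not tested.

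All genes called between the genotypes numbered 3944 before toxin and 567, 1238 and 3330 on successive days of DT. Fits of only the groups compared called 0 (2940 at an unadjusted p under 0.05, edgeR), 940, 2621 and 5138, and fits without controls 3 and 4 called 1875, 1337, 2896 and 5023. For the response these were 1793, 1613 and 3056, and 454, 359 and 1664 in fits of only the groups compared. Within controls they were 4859, 4109 and 4391, against 984, 677 and 920 in such fits and 3125 at day 1 without controls 3 and 4. Within DTRADQ at day 1 and 2 they were 796 and 1324, against 1700 and 2196 in such fits, 1887 and 2943 without controls 3 and 4, and 344 and 786 with the muscle covariate. Of the pathway lists, early response genes at day 3 numbered 3, against 6 by DESeq2, 5 with its size factors, 7 in the fit of 2 groups, 6 without controls 3 and 4 and 1 with the muscle covariate. Before toxin all 6 lists had 0 called in the fit of 2 groups. Without controls 3 and 4, the other ERBB ligands and the adaptors at day 2 each had 1 called, against 0. The feedback inhibitors at day 2 and the adaptors at day 3 then each had 2 called, against 1. For genotype by DT at day 3, the median log2 value was -0.014 over the filtered genes of the main fit. It was 0.132 in DESeq2, which took every gene with a read, so these are medians of unlike gene sets. With DESeq2 size factors on the filtered genes it was 0.031. Errfi1, Spry2 and Spry4 kept their directions.

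With the replicate number as a block, 0 members were called at day 1, against 1, with Egfr at -1.46 (adjusted p = 0.051), and Errfi1 without DT passed at -0.82 (adjusted p = 0.0479). Labels do not say what the numbers mean, and the correlations of same-numbered libraries ran from -0.16 to 0.36, with medians of 0.01 to 0.08 per number, so not every pair deviated together. Of 32 libraries, 17 correlated best with one of their own number, a hint from the data and not from the design. Low counts limit the ligands, Spry4 with 462 reads over all libraries and Egfr with 890.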
